A study of Talpa occidentalis with 24 samples.

Results

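Foxl2 and Wnt4 are 2 genes of the ovarian pathway, and their surroundings were examined in the chromatin state segmentations of mouse ovary and mouse testis. Each locus was taken as a fixed window of the mouse build mm9. The Foxl2 window was chromosome 9, 98500001 to 98950000, 450 kb long, with the gene at 98855800. The Wnt4 window was chromosome 4, 136730001 to 136960000, 230 kb long, with the gene from 136833400 to 136855600. Together the windows held 3400 bins of 200 bp, of 13274547 bins in the mouse genome, or 2250 for Foxl2 and 1150 for Wnt4. The first position given for each gene is called its start below. Both genes are read toward higher coordinates in the mouse, so that lower coordinates lie upstream.

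FOXL2 is a forkhead transcription factor of the supporting cells of the ovary, the cells that become granulosa cells. It holds ovarian identity and counters testis genes such as Sox9, and long-range deletions upstream of it disturb ovarian development in goats and humans. WNT4 is a secreted signalling ligand that acts with RSPO1 through beta-catenin to promote ovarian fate and oppose the testis pathway. Polycomb complexes deposit H3K27me3 on silent developmental genes. The bivalent promoter state is generally understood as H3K4me3 together with H3K27me3, and active enhancers as H3K4me1 with H3K27ac.

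The series used chromatin immunoprecipitation with sequencing (ChIP-seq) for H3K4me3, H3K4me1, H3K27ac and H3K27me3. Its 24 labelled libraries come from wild-type Iberian moles, Talpa occidentalis, at postnatal day 7, with 3 tissues (the ovarian part of the ovotestis, its testicular part and the testis), 4 marks and 2 replicates each. The protocol also names mouse gonads of embryonic day 13.5, fixed whole, and the mouse segmentations are taken to describe these. No labelled library used here is from the mouse, so the genotype, the number of animals and the depth behind the mouse tables are not known. There is 1 segmentation per mouse tissue, hence no replicate, no error and no test, and every difference below is a description of 2 tables. Because whole gonads were used, a mark in fewer cells and less of a mark per cell cannot be told apart.

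Each bin carried 1 of 7 states named by the authors. These were the promoter and the bivalent promoter, enhancers that were either active or poised, repression by Polycomb, and the states called gap and undefined. What the gap state stands for is not given in the sources used here. Active is used below for promoter or active enhancer, and repressed for Polycomb repression or bivalent promoter. Over the genome the active states covered 12.75% in the ovary and 10.4% in the testis, and the repressed states 28.5% and 26.1%. The bivalent promoter state was 1.82 times as extensive in the ovary as in the testis. Each locus is therefore read against its own chromosome. On chromosome Y the gap state covered 98.8% in the ovary and 92.8% in the testis, and 0 bins were active in the ovary against 145 in the testis. The ovary nevertheless had 0.616% of chromosome Y in the bivalent promoter state and 0.382% in the Polycomb state, beside 0.851% and 0.755% in the testis, so this check of the tissue names rests on the active and gap states.

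The start of Foxl2 was in the promoter state in the ovary and in the Polycomb state in the testis. In the ovary a promoter segment of 1000 bp ran from 0.4 kb before the start to 0.6 kb after it, followed by 1000 bp of gap and by a further 200 bp of promoter. In the testis a bivalent segment of 3600 bp ended 0.2 kb before the start, and 1200 bp of Polycomb state covered the start itself. Within 1 kb on each side, the ovary had 5 promoter bins, 3 bivalent bins and 2 gap bins, and the testis had 0 promoter bins, 4 bivalent bins and 6 Polycomb bins. The testis thus had no promoter bin at the start of this gene.

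Around that start both tissues carried repressive states, in different proportions. Within 20 kb on each side, 200 bins in all, the bivalent promoter state took 111 bins in the ovary and 44 in the testis. The Polycomb state took 61 bins in the ovary and 124 in the testis. Bivalent chromatin was the larger class in the ovary and Polycomb chromatin the larger in the testis. Over chromosome 9 the bivalent state was also more extensive in the ovary, with 0.750% against 0.413%. The Polycomb state covered 25.8% of that chromosome in the ovary and 25.15% in the testis. Within the 200 bins the ovary had 0 active enhancer bins, and so had the testis.

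In the ovary the bivalent state of the window formed 4 segments, all between 6.4 kb before and 20.6 kb after the start. The segment just before the promoter was 6000 bp long. The longest, 9000 bp, began 1.8 kb after the start and ranked 14 among the 481 bivalent segments of chromosome 9 in the ovary, whose median was 1200 bp. In the testis the bivalent segment of 3600 bp before the start ranked 2 among 776 on that chromosome, where the median was 400 bp. Long bivalent segments therefore flanked Foxl2 in either tissue. Of the 114 bivalent bins of the ovary in the window, 67 (58.8%) were Polycomb in the testis and 43 (37.7%) were bivalent there as well. Over all of chromosome 9 these shares were 53.4% and 30.2%.

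The start of Wnt4 lay in the gap state in both tissues, from 0.4 kb before to 0.6 kb after it, and the flanks differed. In the ovary the gap was bordered by promoter segments of 400 bp before and 200 bp after it. In the testis it was bordered by 200 bp of Polycomb state on either side. Within 1 kb on each side the ovary had 3 promoter bins and the testis had 0, and the testis had 2 Polycomb bins against 0 in the ovary. The bivalent state was short here, with 1 bin in the ovary and 2 in the testis. In the ovary the gap next to each gene start thus had a promoter segment on either side. A gap directly between promoter or bivalent segments was uncommon: on chromosome 9 this held for 3.45% of gap segments in the ovary and 2.82% in the testis, and on chromosome 4 for 3.51% and 2.65%.

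The Wnt4 gene body, 111 bins, was more active in the ovary. Active states took 32.4% of it in the ovary and 11.7% in the testis, with 33 and 13 active enhancer bins. Over chromosome 4 they covered 14.4% and 11.4%. Poised enhancers took 21.6% in the ovary and 28.8% in the testis. For the Polycomb state the shares were 14.4% and 22.5%. In the first 10 kb after the start the active states covered 54% in the ovary and 20% in the testis. Of 22 spans of 10 kb in the window, this one had the largest excess of the ovary. Neither the gene body nor this span was ranked against windows of its own length. Unlike Foxl2, Wnt4 had no long bivalent stretch at its start.

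**Figure D1:**
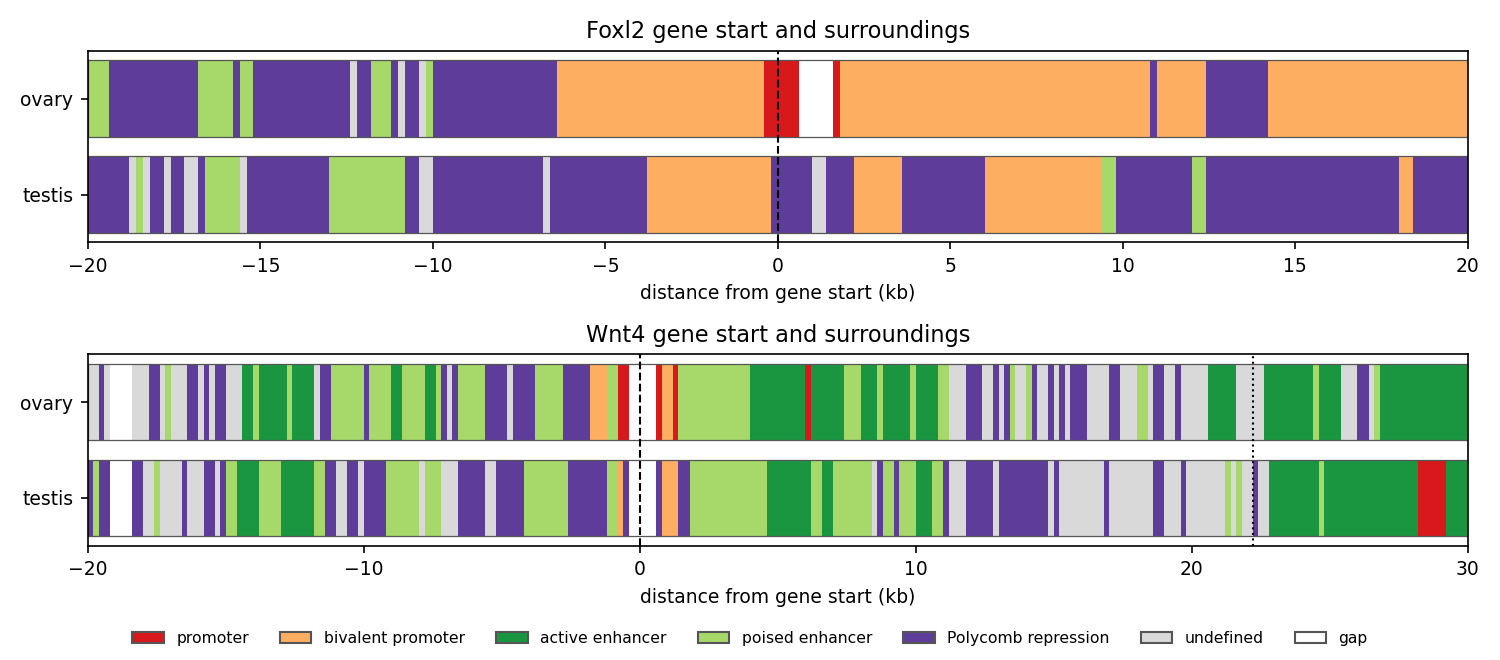
Chromatin states around the starts of Foxl2 (20 kb on each side) and Wnt4 (20 kb before to 30 kb after); the x axis is the distance from the gene start in kb, each row is a tissue, the dashed line is the gene start and the dotted line the end of Wnt4. At Foxl2 the ovary shows a promoter segment of 1000 bp over the start and the testis Polycomb state, with bivalent segments on both sides of the start in either tissue; at Wnt4 promoter segments border the gap only in the ovary.

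Over the whole Foxl2 window the active states covered 18.1% of bins in the ovary and 7.73% in the testis, a difference of 10.4 percentage points and a ratio of 2.34. Over chromosome 9 the shares were 16.1% and 12.7%, with a ratio of 1.27. With both tissues scaled to the same genome total of active states the difference was 7.80 points. Against windows of 450 kb laid end to end, the Foxl2 difference ranked 33 of 274, so that 11.7% of the windows had a larger one. The median window had a difference of 1.69 points, and the range ran from -12.7 to 23.2. The excess was above the typical window and was not among the extremes of the chromosome.

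The promoter state was where the Foxl2 window stood out most. It covered 1.78% of bins in the ovary, in 15 segments, and 0.40% in the testis, in 4 segments. The difference of 1.38 points was the largest of the 274 windows. This rank was noticed after the values had been seen. With the windows laid out from a shifted origin, 1 of 275 was larger, and in the central 50% of the window the difference was 0.62 points. The start of Foxl2 lies 355.8 kb into the window, so this central part leaves out the gene start and its promoter segments. Of the 40 promoter bins of the ovary, 7 (17.5%) were promoter in the testis, against 60.45% over chromosome 9. A further 13 (32.5%) were active enhancer, 10 (25.0%) Polycomb, 6 (15.0%) poised enhancer and 4 (10%) bivalent. On the whole chromosome 2.61% of ovarian promoter bins were Polycomb in the testis.

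The longest promoter segment of the ovary, 2000 bp, began 314.6 kb before Foxl2 and held 8 active enhancer bins and 2 poised bins in the testis. Promoter segments of 200 and 600 bp near 91.0 and 90.2 kb before the gene were Polycomb in the testis over all 4 of their bins. Promoter segments near 354.2 kb before and 31 kb after the start were present in both tissues. No annotation of the mouse build was used here, so none of these segments is assigned to another gene.

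**Figure D2:**
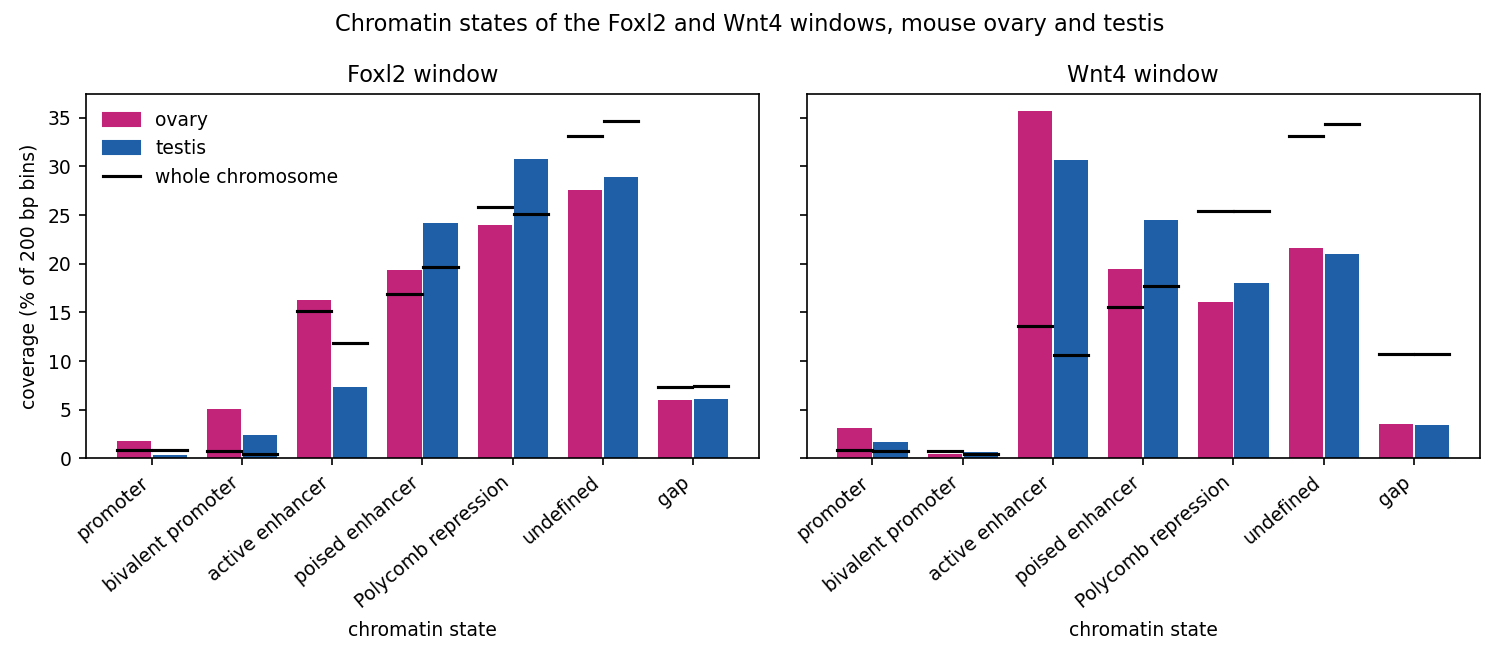
Coverage of each of the 7 states in the Foxl2 and Wnt4 windows, in percent of 200 bp bins (y axis); bars are the ovary and the testis, 1 segmentation each with no replicate, and black lines the whole chromosome. The active enhancer state covers 16.3% of the Foxl2 window in the ovary and 7.33% in the testis, on opposite sides of the chromosome's values of 15.15% and 11.8%; at Wnt4 both tissues lie above their chromosome.

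The repressed states together covered 29.1% of the Foxl2 window in the ovary and 33.1% in the testis. The difference was -4 points, 87.2% of the 274 windows had a higher one, and the median window had 0.67 points. The components went in opposite directions. The Polycomb state alone covered 24.0% in the ovary and 30.7% in the testis, a difference of -6.71 points that ranked 11 from the lowest of 274. The bivalent promoter state covered 5.07% and 2.36%. The ratio between these bivalent shares was 2.15, beside 1.82 over chromosome 9. The level itself was high, ranking 9 of 274 windows in the ovary and 7 in the testis. After scaling to the same genome totals the difference in repressed states was -6.745 points. Those totals include chromosome X, where the Polycomb state covered 50.8% in the ovary and 31.4% in the testis. The ratio of repressed shares, ovary over testis, was 1.092 over the genome and 1.038 over chromosome 9. The longest Polycomb segment of the window was 3600 bp in the ovary, from 10 to 6.4 kb before the start, next to the bivalent segment. In the testis it was 5800 bp, from 73.4 to 67.6 kb before the start, and ranked 33 of 60136 on the chromosome.

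Bin by bin, 288 bins of the Foxl2 window (12.8%) were active in the ovary and not in the testis, against a background of 7.91% of the bins of chromosome 9. In the reverse direction 55 bins (2.44%) were active in the testis only, against 4.54%. The first share was thus above its background and the second below it. Of the 407 active bins of the ovary, 29.2% were active in the testis, against 50.75% on the chromosome. Of the 174 active bins of the testis, 68.4% were active in the ovary, against 64.2%. Most of what was active in the testis was therefore active in the ovary, as elsewhere on chromosome 9, while the ovary had further active bins. In the testis 44.5% of the ovary's active bins were poised enhancer, 14.5% undefined and 10.6% Polycomb, compared with 31.3%, 13.1% and 3.91% over the chromosome. Fewer of these bins were active in the testis in the window than on the chromosome. The other shares together are therefore higher in the window by construction, and each alone is no separate excess. Repressed bins of the ovary only made up 11.5% of the window against 14.3% of the chromosome, and those of the testis only 15.5% against 13.3%. The same state was called in 45.8% of the bins of the window and 50.7% of those of chromosome 9.

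Along the Foxl2 window the active excess of the ovary was largest far upstream. In steps of 10 kb from the start, the ovary was more active in 28 of 44 steps, the testis in 5, and 11 were equal. Active states were also more extensive in the ovary over chromosome 9, with 16.1% against 12.7%, and the steps of the whole chromosome were not counted. The largest excess, 52 points, lay 310 to 300 kb before the gene, where the active states covered 72% in the ovary and 20% in the testis. The next, 46 points, lay 210 to 200 kb before it, with 50% and 4%. The largest excess after the gene was 40 points, from 30 to 40 kb, with 60% and 20%. The steps with a similar level in both tissues included 240 to 230 kb before the gene, with 56% and 54%, and 60 to 70 kb after it, with 50% and 54%.

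Zones with limits chosen after this profile had been seen summarise it. From 350 to 130 kb before the gene, active states covered 26.7% in the ovary and 9.82% in the testis, repressed states 15.6% and 23.55%, and the ovary was more active in 18 of 22 steps. From 130 kb before to 30 kb after, active states covered 2.75% and 0.125%, and repressed states 55.5% and 54.9%. From 30 to 90 kb after the gene, active states covered 23.0% and 17.7%. With these limits the gene lay in a zone where the repressed states together covered a similar share in both tissues. Near the start the ovary had more bivalent and the testis more Polycomb bins, and the start itself was promoter in the ovary. The difference in active states was largest in the upstream zone, but the limits were drawn around that profile, so the contrast between zones is a description only.

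**Figure D3:**
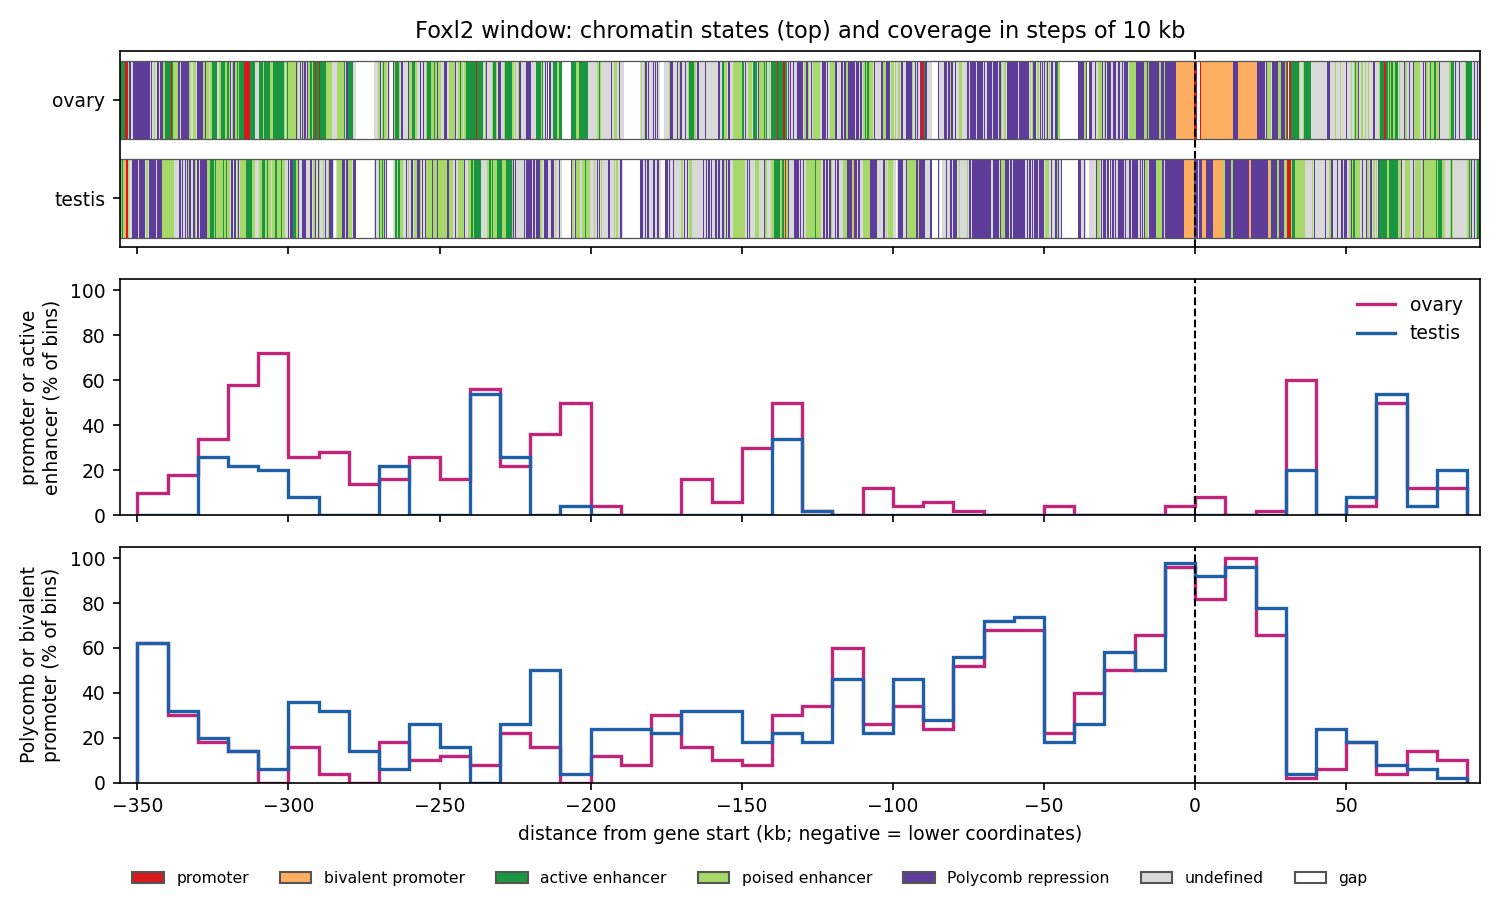
The Foxl2 window in ovary and testis, with the state of each bin (top), and the percent of bins in active states (middle) and in repressed states (bottom) in steps of 10 kb; the x axis is the distance from the gene start in kb, and the dashed line is the start. The ovary's active share reaches 72% between 310 and 300 kb before the gene, and repressed states reach 100% in the ovary 10 to 20 kb after it.

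Distal active enhancers were defined as active enhancer segments of at least 400 bp with no promoter, bivalent or not, within 2 kb in either tissue. The Foxl2 window held 37 of them in the ovary and 22 in the testis. Of the 37, 23 (62.2%) did not overlap any active segment called in the testis, against 43.9% of 8467 such segments on chromosome 9. Of the 22, 7 (31.8%) were found in the testis only, against 35.6% of 8722. The density of ovary-only segments was 51.1 per Mb in the window and 29.9 per Mb on the chromosome, and that of testis-only segments 15.6 and 25.0. With a minimum of 1000 bp, 9 of 20 segments were in the ovary only, against 27.4% on the chromosome. For the testis this was 2 of 4, against 19.7%, so that the testis share then lay above the chromosome's and not below it, on 4 segments. Where an active segment within 1 kb counted as shared, 21 of 37 were in the ovary only, against 29.3%, and 1 of 22 in the testis only, against 21.5%. The ovary share was above the chromosome's under each of these settings.

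Of the 23 ovary-only segments, 20 lay before the start of Foxl2 and 17 of these between 350 and 130 kb before it. The window itself holds 355.8 kb before the start and 94.2 kb after it. The limits of 350 and 130 kb were drawn from the active profile, so the count of 17 is no separate result. The median length of the 23 segments was 600 bp. In the testis 52.5% of their 101 bins were poised enhancer, 28.7% undefined and 18.8% Polycomb. By definition none of these bins was active in the testis. Of all active enhancer bins of the ovary on chromosome 9, 47.85% were active enhancer in the testis. A further 32.65% were poised there, 13.7% undefined and 3.99% Polycomb. These chromosome shares include bins active in the testis, so they cannot be set directly against the shares of the 101 bins. The longest ovary-only segment, 2200 bp, began 36.0 kb after the start, at 98891801 to 98894000. In the testis it had 9 undefined and 2 poised bins. The next 4 were each 1600 bp long. They ended 278.6, 216.4, 204.8 and 165.8 kb before the start, at 98575601 to 98577200, 98637801 to 98639400, 98649401 to 98651000 and 98688401 to 98690000. The one 216.4 kb before the gene was Polycomb in the testis in 5 of its 8 bins, and the one 278.6 kb before it was poised in 7 of 8. The longest testis-only segment, 1800 bp, lay at 98624801 to 98626600, 229.2 kb before the start, and in the ovary had 5 undefined and 4 Polycomb bins. The second, 1400 bp, lay 80.4 kb after the start.

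The Wnt4 window was rich in active states in both tissues, mainly in its part after the end of the gene. Over the whole window these states covered 38.8% in the ovary and 32.35% in the testis, against 14.4% and 11.4% over chromosome 4. The values below are for the window and not for Wnt4 alone. The level ranked 75 of 676 windows of 230 kb in the ovary and 58 in the testis. The difference of 6.43 points ranked 150 of 676, so that 22.0% of the windows had a larger one, and its ratio of 1.199 was below that of 1.27 for the chromosome. After scaling both tissues to the same genome total of active states the direction was the reverse, with 35.2% in the ovary, 36.0% in the testis and a difference of -0.825 points. The active excess of the ovary over this window was therefore no larger than that of the genome as a whole. The promoter state covered 3.13% in the ovary and 1.65% in the testis, a difference of 1.48 points that 8 of 676 windows exceeded, but in the central 50% of the window the difference was -0.174 points.

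**Figure D4:**
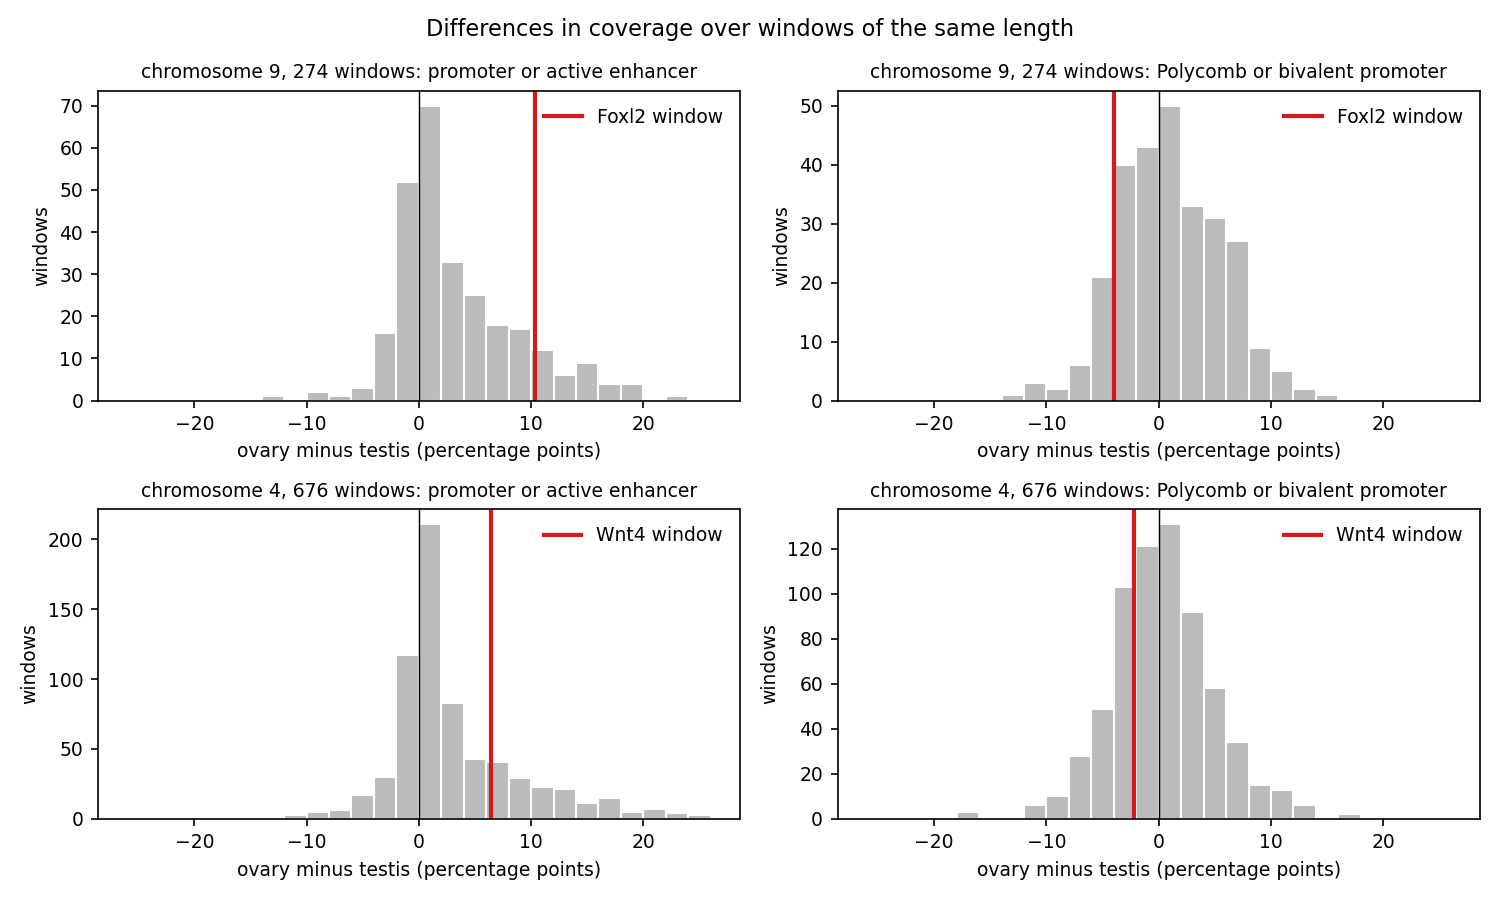
Ovary minus testis in coverage, in percentage points (x axis), over windows of the same length laid end to end on chromosome 9 (274 windows, top) and chromosome 4 (676 windows, bottom), with the number of windows on the y axis; active states are on the left, repressed states on the right, and the red line marks the locus. Foxl2 lies at 10.4 points on the left, toward the upper side of its chromosome, and Wnt4 at 6.43.

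Repressed states covered 16.5% of the Wnt4 window in the ovary and 18.7% in the testis, against 26.2% and 25.9% on chromosome 4. The difference of -2.17 points was exceeded by 70.4% of windows, was -5.73 points in the central 50% of the window, and was -3.73 points after scaling. The genome ratio of repressed shares behind this scaling was 1.092, with chromosome X included, beside 1.013 over chromosome 4. Bin by bin, 154 bins (13.4%) were active in the ovary only, against a background of 7.01% on chromosome 4, and 80 (6.96%) in the testis only, against 3.97%. Both shares were above the background in a window where both tissues were highly active. When an adjoining bin also counted as a match the shares were 7.91% and 4.61%, beside 5.28% and 2.98% on the chromosome. Of the 446 active bins of the ovary 65.5% were active in the testis, against 51.3% on the chromosome, and of the 372 of the testis 78.5% were active in the ovary, against 65.1%. Repressed bins of the ovary only made up 8.87% against 14.1%, and those of the testis only 11.04% against 13.7%. The Jaccard index of the active states, shared bins over bins active in either tissue, was 0.555 at Wnt4 and 0.258 at Foxl2, beside 0.402 on chromosome 4 and 0.396 on chromosome 9. By this index the active chromatin of the tissues overlapped more than their chromosome's in the Wnt4 window and less in the Foxl2 window. The index also depends on the active coverage of each tissue, so it is not separate from the coverage values. At Foxl2, 29.2% of the ovary's active bins and 68.4% of the testis's were shared, against 50.75% and 64.2% on chromosome 9.

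The active states of the Wnt4 window lay mainly after the gene. In the 104.4 kb from its end to the end of the window they covered 65.5% in the ovary and 56.5% in the testis, whereas in the 103.4 kb before its start they covered 13.2% and 12.4%. The longest active enhancer segment of the ovary, 14600 bp, ran from 64.2 to 78.8 kb after the start and ranked 29 of 15824 on chromosome 4. The longest of the testis, 6200 bp, ran from 35.8 to 42.0 kb and ranked 112 of 16615. A promoter segment of 2200 bp that began 109.4 kb after the start had the same limits in both tissues. Without an annotation of the mouse build, none of the active segments after the gene is assigned to Wnt4 or to another gene. In steps of 10 kb, the ovary was more active in 14 of 22 and the testis in 5. Active states were also more extensive in the ovary over chromosome 4, with 14.4% against 11.4%. The steps of the whole chromosome were not counted, so these counts are not read as a trait of the locus. The longest Polycomb segment was 4000 bp in the ovary and 2200 bp in the testis, and began 58.2 and 58.8 kb before the start. The largest excess of active states in the ovary, 34 points, was in the first 10 kb after the start of Wnt4, and the largest of the testis, 18 points, was reached 90 to 80 kb before it and again 50 to 60 kb after it. In the ovary the step with the highest active share, 96%, lay 70 to 80 kb after the start, where the testis had 64%.

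**Figure D5:**
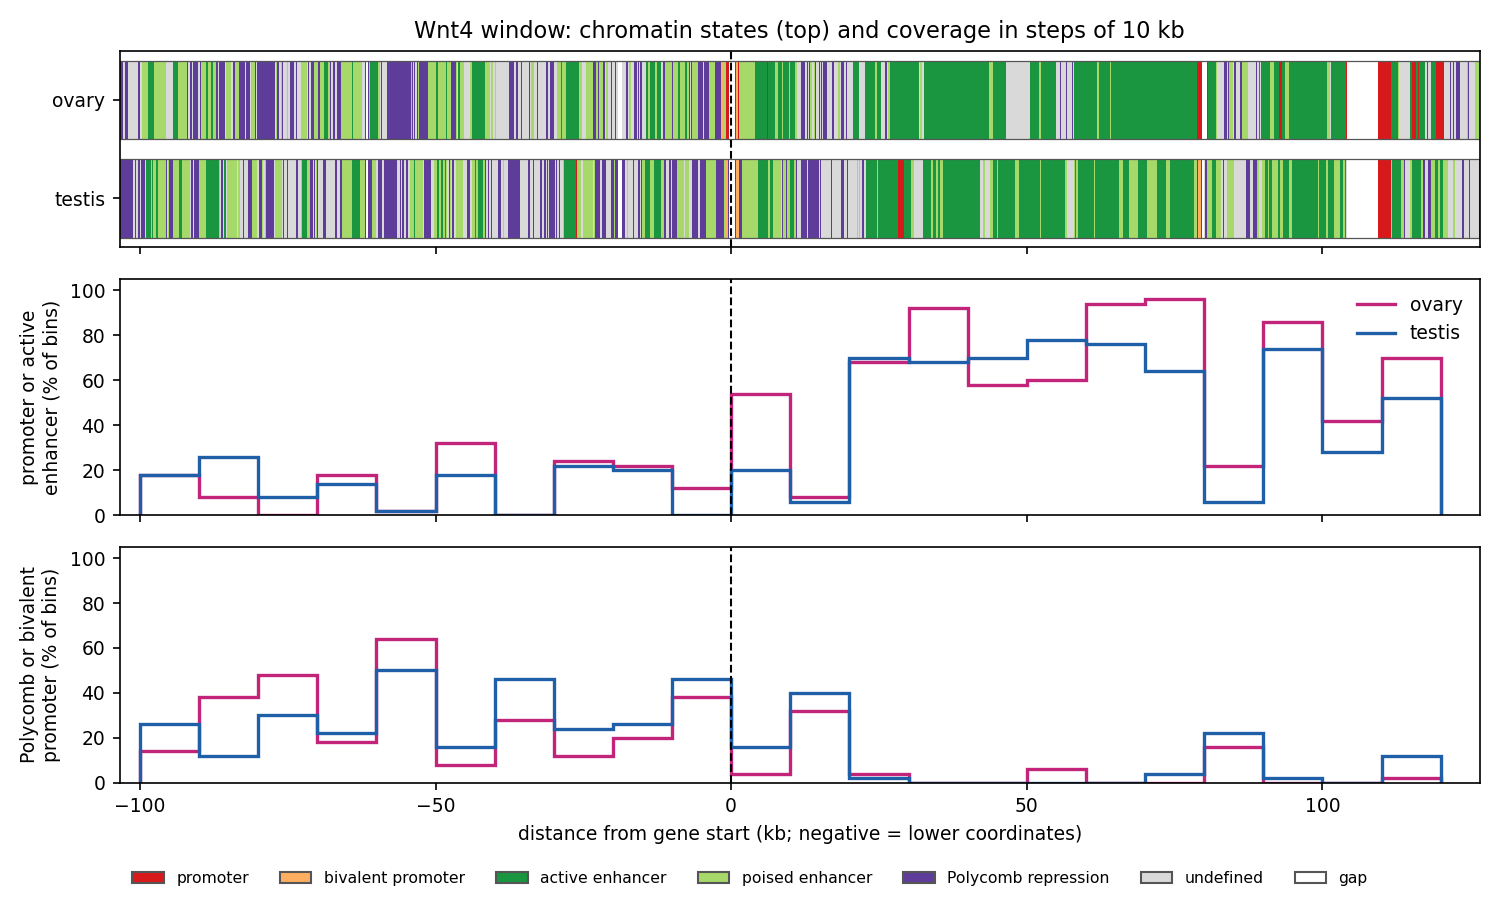
The Wnt4 window in ovary and testis, with the state of each bin (top), and the percent of bins in active states (middle) and in repressed states (bottom) in steps of 10 kb; the x axis is the distance from the gene start in kb, and the dashed line is the start. In the first 10 kb after the start the active share is 54% in the ovary and 20% in the testis, and from 20 to 80 kb after it the active share is at least 58% in the ovary and 64% in the testis.

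Distal active enhancers of the Wnt4 window numbered 25 in the ovary and 26 in the testis, or 109 and 113 per Mb against 60.1 and 61.2 on chromosome 4. Of the 25, 8 (32.0%) were found in the ovary only, against 44.7% of 9357 on the chromosome. Of the 26, 3 (11.5%) were found in the testis only, against 35.2% of 9526. Both shares lay below the chromosome's, unlike the share of 62.2% for the ovary at Foxl2. The counts are small. Requiring 1000 bp left 3 of 13 in the ovary only, against 27.4% on the chromosome, and 0 of 15 in the testis only, against 18.6%. Dropping the length limit gave 11 of 29, against 51.4%, and 7 of 33, against 42.1%. The shares stayed below the chromosome's at both limits. The longest ovary-only segment, 1200 bp, lay 59.8 kb before the start at 136772401 to 136773600. Segments of 1000 bp followed at 136842201 to 136843200 and 136854001 to 136855000, both inside the gene, 8.8 and 20.6 kb after its start. The first of these was poised in 4 and Polycomb in 1 of its 5 bins in the testis, and the second was undefined in 4 and poised in 1. The testis-only segments, of 800, 600 and 400 bp, all ended between 71.8 and 92.8 kb before the start.

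In the mole, only gene models were compared, since the segmented mole assembly has no gene positions here and the states at FOXL2 and WNT4 were not analysed. Among the models on the assembly talOcc3, WNT4 had 1 model on the plus strand of scaffold 2, from 91031241 to 91040418, with 4 exons of 236, 132, 143 and 468 bp. It matched positions 251 to 1229 of its target sequence, so the model begins inside the target. It lay between ZBTB40, which ends 254591 bp before it, and CDC42, a small GTPase gene that follows after 21075 bp. FOXL2 was looked for by name among these models and was not matched, so its position on talOcc3 was not analysed here. In the RefSeq gene table of the mole FOXL2 lies between the named genes MRPS22 and PIK3CB. On talOcc3 scaffold 13 these are 530415 bp apart, and the interval holds a PRR23A model and a copy named for C12orf29. WNT4 lies between CDC42 and ZBTB40 in that table too. All 5 named neighbours on each side of either gene were found on the same talOcc3 scaffold as one another. A list of 20 genes was drawn up around the ovarian pathway and includes RSPO1, CTNNB1, FST, BMP2 and NR5A1. Not all of the listed genes are particular to that pathway. Of the 20, 18 were matched to talOcc3 models by name, and FOXL2 and IRX3 were not. AXIN2, a feedback inhibitor of Wnt signalling, was the one with 2 models.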

How the data were processed

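The members, windows and gene lists were chosen with earlier results of these data known. The mouse segmentations were deposited by the authors as segments with a named state, made with EpiCSeg per the file headers. No source used here gives the EpiCSeg version or the marks behind a state. STAR 2.6.1d and mm9 are named in the submitters' processing notes. The deposited tables hold no read counts, and their depth is unknown.

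Segments were expanded to bins of 200 bp. Windows and gene positions follow a fixed rule. Coverage was the percent of bins in a state, set against windows of the same length laid end to end on the same chromosome, with ranks as a description. The states at the gene starts, the 5 longest distal segments in 1 tissue only in each direction, and the longest Polycomb segments were named by rule; other segments were chosen after their values were seen. Values under other settings were called moved when they left the Wilson 95% interval over bins (for differences, Newcombe's), and counts of segments when they changed by over 1.5 times; adjoining bins are not independent. Computations used Python 3.11.15, NumPy 2.4.6 and SciPy 1.17.1 and were tested on simulated segmentations. The mole segmentations, whose libraries form 12 groups of tissue and mark, were not used here. Mole gene models were taken as deposited by the authors, and names from RefSeq were matched for both genes.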

Additional observations from a re-analysis of the deposited data

How the results depend on the processing

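No paired analysis was possible because each mouse tissue has 1 segmentation that combines its libraries, and for the same reason no replicate could be left out. Of 54 recomputed values, 35 stayed within their limits. Scaling to equal genome totals gave 7.80 points for the active states at Foxl2, -6.745 for the repressed states there and -0.825 for the active states at Wnt4, where the sign turned. The genome totals include chromosome X, where the repressed states differ widely between the tissues. The Polycomb state alone gave -6.71 points at Foxl2. The central 50% of the window gave -5.73 points for the repressed states at Wnt4, and, chosen after seeing the data, 0.622 for the promoter state at Foxl2 and -0.174 at Wnt4, where the sign turned. At Foxl2 the central part of the window leaves out the gene start. Shifted tiles, also chosen after seeing the data for this state, gave 1 window with a larger promoter difference than Foxl2 and 5 with a larger one than Wnt4. Counting adjoining bins as matches gave 10.7% (ovary only) and 1.73% (testis only) at Foxl2, against 5.97% and 3.44% on chromosome 9. At Wnt4 it gave 7.91% and 4.61%, against 5.28% and 2.98% on chromosome 4. A minimum of 1000 bp gave 9 of 20 ovary-only (chromosome 27.4%) and 2 of 4 testis-only distal segments at Foxl2 (chromosome 19.7%, the opposite side from the 31.8% against 35.6% at 400 bp), and 3 of 13 (27.4%) and 0 of 15 (18.6%) at Wnt4, no minimum gave 7 of 33 testis-only segments at Wnt4 (42.1%), and matching within 1 kb gave 1 of 22 at Foxl2 (21.5%). The cause of these shifts was not tested beyond what each setting changes by construction. All 10 recomputed coverage differences at Foxl2 kept their sign, and 8 of 10 at Wnt4 did. Depth and replicate error, which are unknown, limit every value.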
